A study of Bos taurus with 16 samples.

Results

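The 7 genes described here, S100A8, S100A9, S100A12, FCN1, CLEC4D, CLEC4E and PLAC8A, are calgranulins and other genes that mark classical monocytes of the blood. They were chosen by name, and 7 of the 20597 distinct gene names on the array are theirs. A name or a bracketed symbol in the scanner files gave 4 of them. FCN1, listed there as FCNB, CLEC4D, listed as LOC616646, and PLAC8A, listed as PLAC8, were named through their accession or gene identifier in a RefSeq gene table of assembly ARS-UCD2.0. Each of the 7 genes had 1 probe with 2 spots, and all 7 probes passed the filter on dim signals.

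The study compared CD14+ cells from the endometrium with CD14+ cells from peripheral blood of 4 pregnant cows (Bos taurus). The estimated stage was day 164 of pregnancy in animal 1, day 239 in animal 2, day 242 in animal 3 and day 248 in animal 4. Both cell types came from the same animal at slaughter, the endometrial cells after collagenase digestion of endometrium between the placentomes and the blood cells from the mononuclear layer, and both were gated on scatter for monocytes and sorted in repeated rounds with an antibody to CD14. The labels describe both preparations as mostly CD14+ by flow cytometry, blood more so than endometrium. Both tissues of an animal shared an array, each in its own dye, on 2 technical replicate arrays per animal, which gave 16 samples on 8 arrays. The dyes were swapped between the arrays in 3 animals, and in animal 3 blood was in Cy3 on both. RNA was amplified before labelling. Breed, age and parity were not given in the sources used here.

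Calgranulins are small calcium-binding proteins of the S100 family that monocytes and neutrophils hold in large amounts in the cytosol and release when activated. S100A8 and S100A9 pair to form calprotectin, which binds zinc and manganese and signals through TLR4, while S100A12 is a ligand of the receptor AGER. Monocytes that leave the blood and become macrophages in a tissue generally lower these genes and raise scavenger receptors and complement C1q, and endometrial macrophages of pregnancy are one such tissue population. S100A8, S100A12 and S100A9 lie next to each other in that order in the gene table, CLEC4D and CLEC4E are neighbours, and PLAC8A lies beside its paralog PLAC8B.

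The probes are 60-mers. Those of S100A9 and CLEC4D are shown because both read through without a stop codon in 1 forward frame, and because the values of both genes were near the lower end of the scale in most samples, so that what the probe reads bears on the result. They are printed 5′ to 3′ as the scanner files give them, in lower case throughout, with no part marked.
S100A9: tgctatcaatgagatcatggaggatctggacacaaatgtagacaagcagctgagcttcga
CLEC4D: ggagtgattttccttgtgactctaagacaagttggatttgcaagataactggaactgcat

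Levels are given as log2 of the normalised intensity, the mean of the 2 arrays of a sample. An offset of 50 was added in the background correction, so a probe without signal reads close to 5.99, the median over probes that were never well above background. A difference of 1 on this scale is a 2-fold difference, and the offset makes differences between dim values smaller than they are. Levels of different genes were not compared, since they come from different probes.

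The samples did not match their label evenly, which bears on every value that follows. CD14, the surface marker used for sorting, had a level of 14.24 in blood and 12.17 in endometrium of animal 1. In animals 2, 3 and 4 it was 6.31, 7.63 and 6.69 in blood and 6.41, 8.14 and 6.82 in endometrium. CD14 was well above background on all 16 channels, but only animal 1 had a level above 8.14 in either tissue. The 21 natural killer and T cell markers averaged 7.02 in blood of animal 1 and from 9.90 to 10.82 in blood of the others, and 8.37 in endometrium of animal 1 against 10.17 to 11.66. CD3D, a subunit of the T cell receptor complex, was 6.30 in blood of animal 1 and 10.91, 8.68 and 9.74 in blood of animals 2, 3 and 4. The 9 B cell markers averaged 8.70 in blood of animal 1 and from 9.46 to 10.97 in blood of the other animals. Blood of animal 1 therefore stood apart from the other blood samples, with the most CD14 and the least lymphocyte signal. Animal 1 was also the earliest in pregnancy, at day 164 against days 239 to 248. Its stage and other traits of this animal cannot be told apart. The part of lymphocyte content in the results below was not tested, and with bulk RNA fewer monocytes and less RNA per monocyte cannot be told apart.

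**Figure D1:**
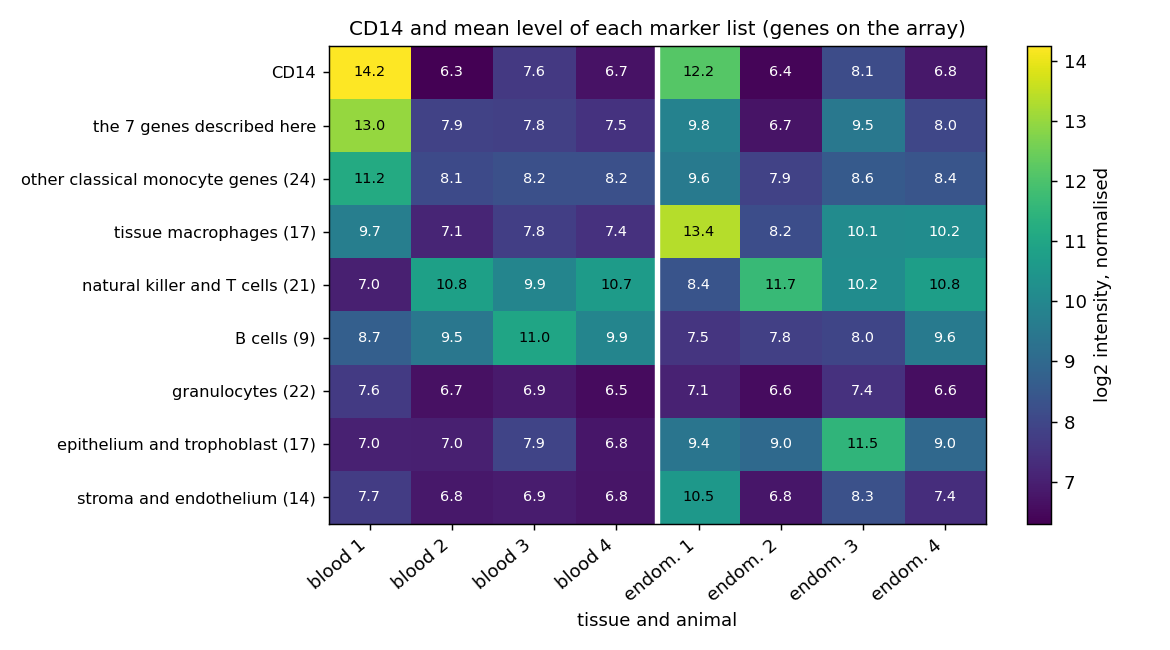
Level of CD14 and mean level of each marker list in the 8 tissue and animal combinations, as log2 normalised intensity, each the mean of 2 arrays, with the number of genes on the array in brackets. CD14 and the mean of the 7 genes were highest in blood of animal 1, where the natural killer and T cell markers had their lowest mean, 7.02.

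The 7 genes did not differ in one direction between endometrium and blood. None of them passed the threshold of limma's moderated test over 4 animals, which asks for more than a 2-fold difference with an adjusted p no higher than 0.05 and which 0.0661% of the 16653 probes tested passed (11 probes). None passed at an unadjusted p of at most 0.05 with the same fold either, where 10.4% of all probes did. In animal 1, 6 of the 7 genes were over 4-fold higher in blood, and in animal 3, 4 of the 7 were over 4-fold higher in endometrium. Over all tested probes these shares were 2.68% and 8.8%, and neither count has a test, as each rests on 1 animal. The median log2 ratio of endometrium over blood across the 7 genes was -0.57, against -0.02 over all probes. Taken animal by animal it was -3.77, -0.66, 2.21 and 0.63 for animals 1 to 4, while the median of all probes lay between -0.09 and -0.02 in each animal.

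**Figure D2:**
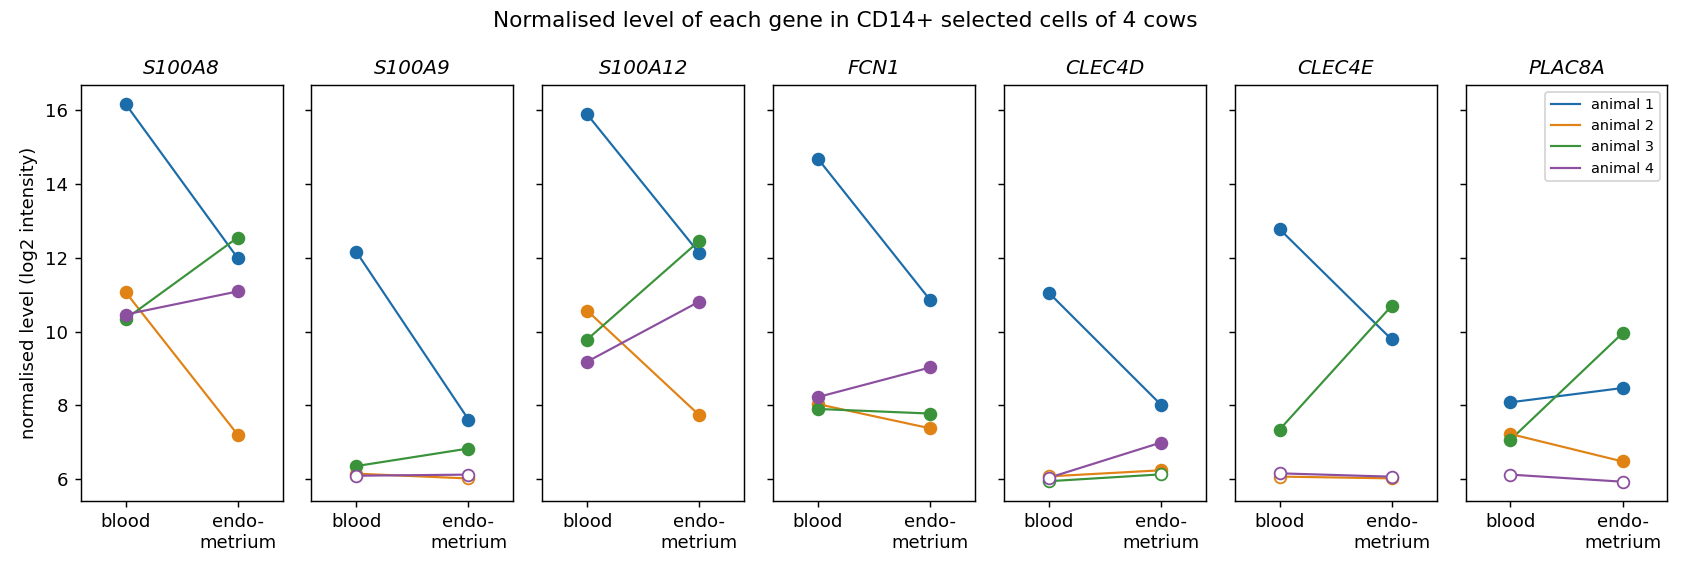
Level of each of the 7 genes in blood and endometrium, as log2 normalised intensity, with 1 line per animal, and open circles where the probe was not well above background on both arrays of the sample. Blood of animal 1 had the highest blood level of every gene, and for S100A8 and S100A12 the line of animal 2 falls toward endometrium while those of animals 3 and 4 rise.

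S100A8, the light chain of calprotectin, had levels of 16.18, 11.07, 10.34 and 10.46 in blood of animals 1 to 4. In endometrium it was 11.99, 7.20, 12.55 and 11.09. The ranges of both tissues overlapped, with blood of animal 1 at the top and endometrium of animal 2 at the bottom. S100A8 was 18.2-fold higher in blood than in endometrium of animal 1 and 14.6-fold higher in blood of animal 2. It was 4.63-fold higher in the endometrial cells of animal 3 and 1.54-fold higher in those of animal 4. The mean log2 ratio was -1.30 ± 1.21 (SE, n = 4), with a 95% interval from -4.34 to 1.74 and an adjusted p from limma of 0.636. The interval holds large differences in both directions, so these 4 animals do not settle one for S100A8. Without animal 1 the mean log2 ratio was -0.34 ± 1.24.

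S100A12, the ligand of AGER, followed S100A8. Its levels were 15.89, 10.57, 9.78 and 9.18 in blood of animals 1 to 4, and 12.12, 7.73, 12.46 and 10.81 in endometrium. Again the tissues overlapped, and the direction of the difference in each animal was the one seen for S100A8. Blood was 13.6-fold higher in animal 1 and 7.14-fold higher in animal 2, while endometrium was 6.39-fold higher in animal 3 and higher by 1.63 on the log2 scale in animal 4. The mean log2 ratio was -0.57 ± 1.21 (SE, n = 4; limma, adjusted p = 0.861) with a 95% interval from -3.61 to 2.46, and without animal 1 it was 0.49 ± 1.16. Across the 8 tissue and animal combinations the levels of S100A8 and S100A12 had a Pearson r of 0.977, and over the 6 combinations of animals 2 to 4 it was 0.943. These values share animals and arrays and are given as a description.

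In animal 2, 2 of the 7 genes, S100A8 and S100A12, were over 4-fold higher in blood, as were 2.8% of all tested probes. In endometrium both genes were lowest in animal 2 and highest in animal 3.

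S100A9, the heavy chain of calprotectin, was high in 1 blood sample. It reached 12.16 in blood of animal 1 and 6.15, 6.35 and 6.09 in blood of animals 2 to 4. In endometrium it was 7.61, 6.02, 6.83 and 6.12. S100A9 was well above background on both arrays in blood and endometrium of animals 1 and 3 and on neither array in animals 2 and 4. It therefore had a measured level in 4 of the 8 combinations, and in only 1 of them was it far from the lower end of the scale. Blood was 23.4-fold higher than endometrium in animal 1, and the mean log2 ratio over 4 animals was -1.04 ± 0.90 (SE; limma, adjusted p = 0.607, 95% interval from -3.29 to 1.21). Without animal 1 it was 0.13 ± 0.29. Where S100A9 was near the lower end of the scale, in blood of animals 2 to 4, its partner S100A8 was well above background on both arrays of each sample.

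FCN1 encodes M-ficolin, a soluble and cell-bound lectin of monocytes that binds acetylated sugars and activates complement through MASP proteases. Its levels were 14.69, 8.03, 7.90 and 8.22 in blood of animals 1 to 4, and 10.86, 7.38, 7.78 and 9.03 in endometrium. Both tissues of animal 1 were above all samples of the other animals. The probe was well above background on all 16 channels, so its low levels in animals 2 to 4 were measured and not limited by background. Blood was 14.2-fold higher in animal 1, and the log2 ratios of the other animals lay between -0.66 and 0.80. The mean was -0.95 ± 0.77 (SE, n = 4; limma, adjusted p = 0.583, 95% interval from -2.89 to 0.99), and without animal 1 it was 0.0077 ± 0.38.

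CLEC4D and CLEC4E encode MCL and Mincle, C-type lectin receptors of myeloid cells that bind mycobacterial glycolipids and signal through FCER1G and SYK. CLEC4D had levels of 11.05, 6.07, 5.94 and 6.03 in blood and 8.02, 6.24, 6.13 and 6.99 in endometrium of animals 1 to 4. In blood of animals 2 to 4 it was not well above background on any array, so its blood level there is only a bound. In endometrium it was well above background on both arrays in animals 1, 2 and 4. The log2 ratio was -3.04 in animal 1 and 0.17, 0.19 and 0.95 in animals 2, 3 and 4. The mean was -0.43 ± 0.69 (SE, n = 4; limma, adjusted p = 0.807, 95% interval from -2.16 to 1.30), and it was 0.44 ± 0.31 without animal 1. In animal 3 neither tissue was well above background, so its ratio has no direction, and the ratios of animals 2 and 4 rest on a blood value that is a bound. The authors' own log2 values, which carry no such offset, gave a mean log2 ratio of 1.41, opposite in sign, with ratios of -3.45, 2.48, 1.73 and 4.87 in animals 1 to 4. An offset of 16 and no background correction kept the sign, with -0.21 and -0.25, and the cause of the reversal was not tested.

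CLEC4E had levels of 12.78, 6.07, 7.34 and 6.15 in blood of animals 1 to 4, and 9.79, 6.02, 10.70 and 6.06 in endometrium. It was high in both tissues of animal 1 and in endometrium of animal 3, and near the lower end of the scale in both tissues of animals 2 and 4. Blood was 7.97-fold higher than endometrium in animal 1 and endometrium was 10.3-fold higher than blood in animal 3. The mean log2 ratio was 0.06 ± 0.99 (SE, n = 4; limma, adjusted p = 0.993, 95% interval from -2.42 to 2.53), and without animal 1 it was 1.07 ± 0.80. The authors' values gave a mean of -0.023.

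PLAC8A, a small cysteine-rich protein of leucocytes and of other cell types, differed from the other genes. Its levels were 8.08, 7.22, 7.06 and 6.12 in blood of animals 1 to 4, and 8.47, 6.48, 9.96 and 5.93 in endometrium. The highest of the 8 levels was in endometrium of animal 3, where it was 7.43-fold above blood, and both tissues of animal 4 were near the lower end of the scale. In animal 1, which had the largest blood excess for the other genes, the log2 ratio of PLAC8A was 0.39. The mean was 0.59 ± 0.63 (SE, n = 4; limma, adjusted p = 0.691, 95% interval from -0.99 to 2.17), and without animal 1 it was 0.65 ± 0.80. Its paralog PLAC8B was not analysed here, and how far its transcripts bind the PLAC8A probe was not tested.

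**Figure D3:**
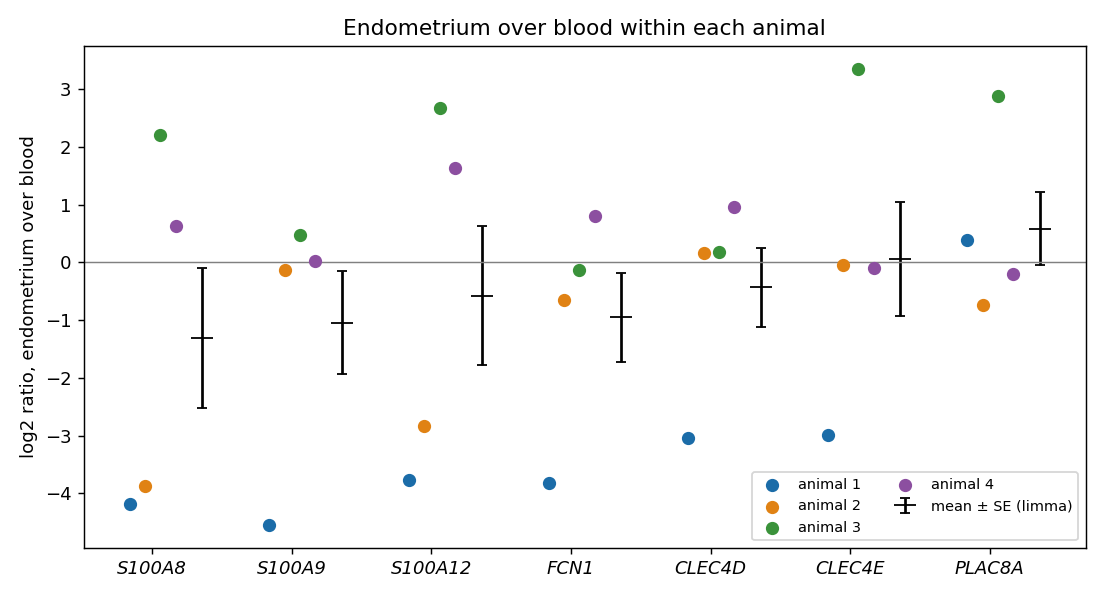
Log2 ratio of endometrium over blood in each of the 4 animals for the 7 genes, each point the mean of 2 arrays, with the mean and SE of the fit in black. In animal 1, 6 of the 7 ratios lay between -4.55 and -2.99, while for S100A8 and S100A12 animal 2 lay below 0 and animals 3 and 4 above it. Ratios close to 0 for S100A9, CLEC4D and CLEC4E include samples not well above background in either tissue, and their side of 0 has no meaning.

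An exact two-sided permutation test of the mean ratio, over all sign changes of the 4 animals, cannot go below p = 0.13 in this design, and it gave exact p-values from 0.5 to 1 for the 7 genes. The 2 arrays of a sample differed by a median of 0.07 to 0.12 log2 units for the 7 genes, and at most by 1.23, for S100A8 in endometrium of animal 1. The SD among the 4 blood samples was 2.79 for S100A8, 2.99 for S100A9, 3.08 for S100A12, 3.32 for FCN1, 2.52 for CLEC4D and 3.18 for CLEC4E. Each of these was larger than the SD of at least 99.2% of the probes tested, whose median SD in blood was 0.45. PLAC8A had an SD of 0.80 among the blood samples, larger than that of 77.7% of the probes. In endometrium the SD ranged from 0.74 for S100A9 to 2.45 for CLEC4E, where the median over all probes was 0.64.

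Blood of animal 1 was the highest of the 4 blood samples for 7 of the 7 genes and the highest of all 8 combinations for 6, PLAC8A being the exception. For 6 genes it was over 4-fold above the highest of the other blood samples, as were 4.29% of all tested probes. It exceeded that next blood sample 34.4-fold for S100A8, 56.1-fold for S100A9, 40.1-fold for S100A12, 88.2-fold for FCN1 and 43.4-fold for CLEC4E. Which tissue of animal 1 this is rests on reading the scanner files exchanged between technical replicates, as the authors' values match them at 100% of probes. Read so, the epithelial and trophoblast markers averaged 9.39 in endometrium and 7.03 in blood of animal 1. With the files as attached to the samples, the high sample is endometrium of animal 1, which is then over 4-fold above the other endometrial samples for 6 genes, as are 2.87% of all probes. Among blood of animals 2 to 4, S100A8, S100A12 and FCN1, which were well above background on every channel, spanned 0.73, 1.38 and 0.32 log2 units. The fit without animal 1 called none of the 7 genes at either threshold, with 9.67% of all probes at the unadjusted one.

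The genes varied together to different degrees. Over all 8 combinations the 15 pairs without PLAC8A had a Pearson r from 0.755 to 0.989. Without animal 1 the 21 pairs of the 7 genes ranged from -0.409 to 0.987, and 6 of them were below 0. S100A8 and S100A12 remained close, as did FCN1 and CLEC4D with an r of 0.732. CLEC4E and PLAC8A, both highest among animals 2 to 4 in endometrium of animal 3, had an r of 0.947. FCN1 and CLEC4D, both highest among animals 2 to 4 in endometrium of animal 4, went against them with an r between -0.41 and -0.25. Among animals 2 to 4, CLEC4D was well above background on both arrays only in endometrium of animals 2 and 4. S100A9 and CLEC4E were so only in the tissues of animal 3. The r values of these genes therefore rest largely on values at the lower end of the scale and few high ones. With 6 points that share animals and arrays, these values are descriptions.

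**Figure D4:**
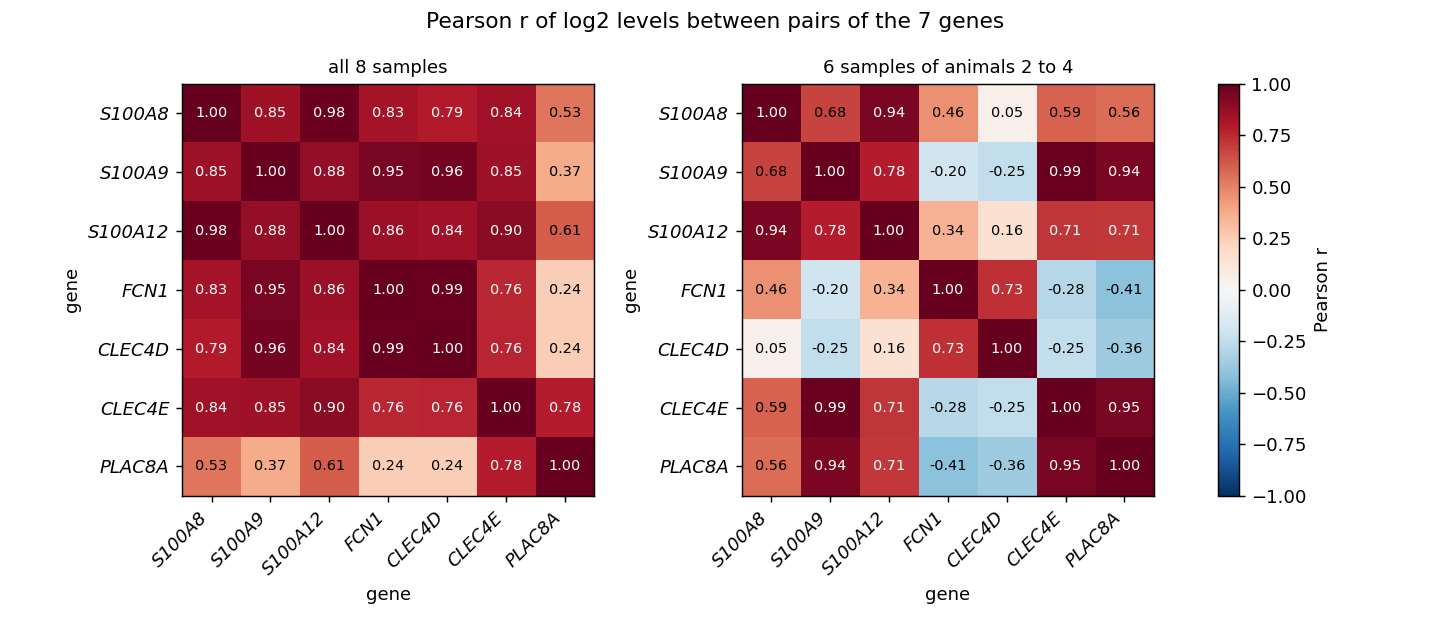
Pearson r of the log2 levels of each pair of the 7 genes, over all 8 tissue and animal combinations on the left and over the 6 combinations of animals 2 to 4 on the right, on a colour scale from -1 to 1. With all samples no pair is below 0, and without animal 1 there are 6 pairs below 0, all of FCN1 or CLEC4D with S100A9, CLEC4E or PLAC8A.

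The genes whose levels most resembled each member over the 8 combinations mostly shared the high value in blood of animal 1. For FCN1 and CLEC4D the closest was AQP9, an aquaporin that passes water and glycerol, with r = 0.993 and r = 0.998. AQP9 was 12.47 in blood and 8.56 in endometrium of animal 1, and at most 7.03 in the other animals. STX2 and TTLL7 came next for FCN1, with r of 0.986 for each, and TTLL7 and HCAR2, a receptor for niacin, for CLEC4D, with r of 0.992 and 0.991. CLEC4E was closest to F5, coagulation factor V (r = 0.993), LAP, a beta-defensin of cattle (r = 0.991), and BPI, a bactericidal protein that binds lipopolysaccharide (r = 0.987). BPI was 13.56 in blood and 10.79 in endometrium of animal 1 and 11.40 in endometrium of animal 3, the same samples in which CLEC4E was high. S100A8 was closest to SELENOF (r = 0.992), GLUL, glutamine synthetase (r = 0.957), and ZDHHC3 (r = 0.948), and the same genes led for S100A12 with GLUL at 0.969. For S100A9 they were SLC13A5 and CDA, cytidine deaminase, both with r = 0.993, and GPBAR1, a bile acid receptor, with r = 0.991. PLAC8A stood with RXYLT1 (r = 0.991), MET, the receptor of hepatocyte growth factor (r = 0.987), and ARL2 (r = 0.983). MET was 10.63 in endometrium of animal 3, its highest level.

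Among the other genes of classical monocytes, 20 of 24 on the array were tested, and none was called after adjustment. IL1B and CXCL8, which encode inflammatory cytokines, passed the unadjusted threshold as higher in blood, and FCGR1A, the high-affinity receptor for IgG, as higher in endometrium. The log2 ratio was -2.00 for IL1B (adjusted p = 0.297) and -1.98 for CXCL8 (adjusted p = 0.266), and CXCL8 was 15.11 in blood of animal 1. That of FCGR1A was 1.73 (adjusted p = 0.262), followed by VNN1 with 0.97. The median ratio of the 20 genes was -0.32, or -1.49, -0.14, 0.16 and 0.07 for animals 1 to 4 taken singly. Blood of animal 1 was the highest blood sample for 18 of the 20 and over 4-fold above the next for 13 of them. Over all probes those shares were 30.6% and 4.29%, and no test was made of the list. CSF3R, the receptor for granulocyte colony-stimulating factor, named here after its values were seen, showed the same shape as S100A9, with 12.79 in blood of animal 1 and 6.48 to 6.65 in the other blood samples.

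**Figure D5:**
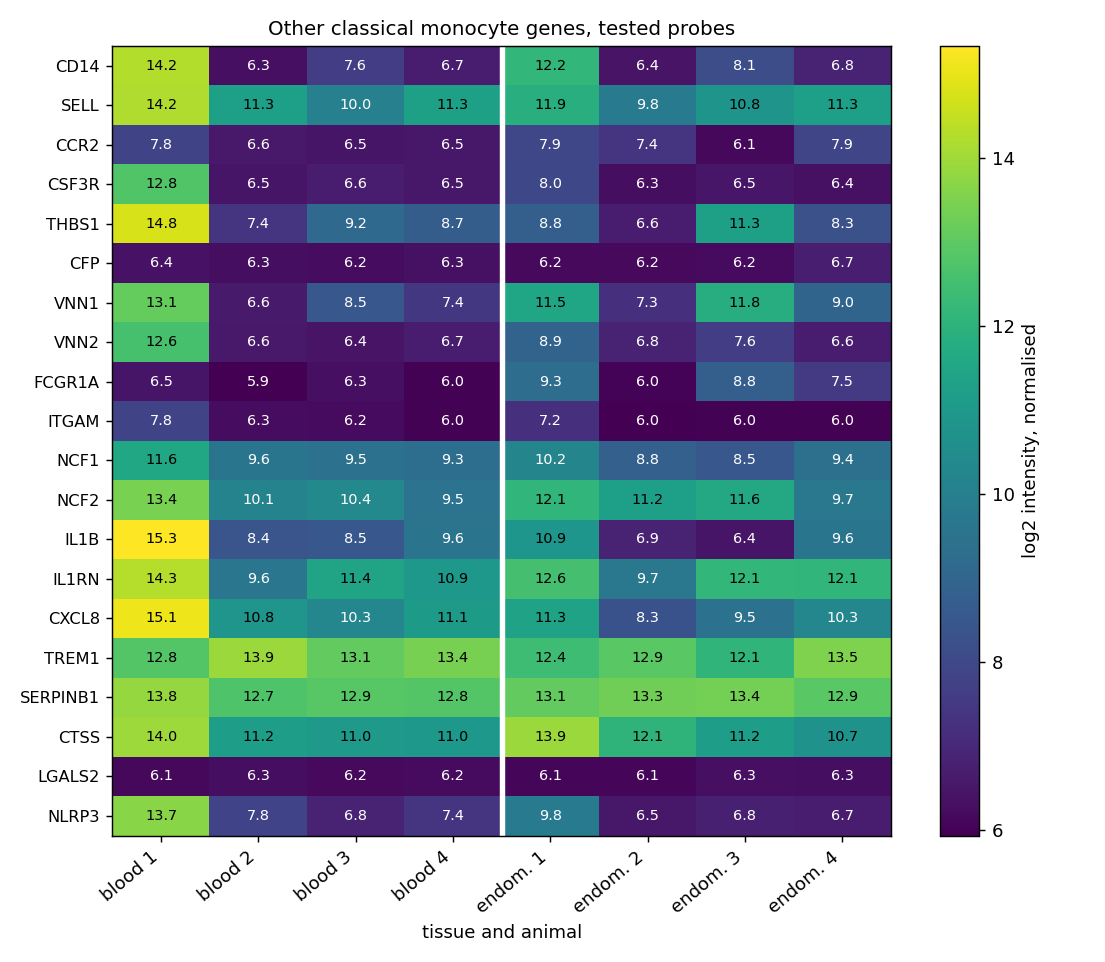
Level of the 20 tested probes for other genes of classical monocytes in the 8 tissue and animal combinations, as log2 normalised intensity, each the mean of 2 arrays. The column of blood of animal 1 is the highest of the 4 blood columns for 18 of the 20 genes.

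Of 13 other S100 genes on the array 12 were tested. S100G, a vitamin D-dependent calcium-binding protein of epithelia, was the one called, with a log2 ratio of 4.46 (limma, adjusted p = 0.033). It was 11.54, 11.65, 13.62 and 12.74 in endometrium of animals 1 to 4 and at most 8.68 in blood, so the tissues did not overlap. S100A14 had a ratio of 2.00 (adjusted p = 0.323) and passed at the unadjusted threshold only. The lowest ratios were -0.91 for S100A7 and -0.76 for S100A1, neither past a threshold. S100A4, named after its values were seen, had ratios of -1.54, -2.18, 0.88 and 0.90 in animals 1 to 4, with the sign of S100A8 and S100A12 in each. S100A7, called psoriasin, had the shape of S100A9, with 11.13 in blood of animal 1, 7.54 in its endometrium and 6.07 to 6.25 elsewhere.

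Of the 12 receptors and regulators of the calgranulins on the array 10 were tested and none passed either threshold. BSG, a receptor reported for S100A9, had a log2 ratio of 0.46 and TLR4 of 0.32, while LY96, the partner of TLR4, had -0.85 and SPI1, the transcription factor PU.1 of myeloid cells, -1.29. TLR4 was 13.65 in blood and 11.91 in endometrium of animal 1 and between 8.33 and 10.59 in the other samples. Its level was thus highest in the animal with the highest CD14, the co-receptor with which it recognises lipopolysaccharide.

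Of 18 further C-type lectins and genes that act downstream of them, 13 were tested. CLEC12A, an inhibitory receptor of myeloid cells, passed the unadjusted threshold with a log2 ratio of 2.19 (adjusted p = 0.273), and CLEC14A, found on endothelium, had 2.09 (adjusted p = 0.347). CLEC12A was 13.04 in blood and 12.84 in endometrium of animal 1, and higher in endometrium than in blood in animals 2 to 4. In blood of animals 2 to 4 CLEC12A was 6.28, 6.82 and 6.64, so blood of animal 1 stood far above other blood, as for CLEC4D and CLEC4E. Its log2 ratio in animal 1 was -0.20, without the excess of blood over endometrium that CLEC4D and CLEC4E had there. BCL10 and MALT1, which pass on signals from SYK, had the lowest ratios, -1.36 and -0.86, and passed no threshold. In the lectin pathway of complement, to which FCN1 belongs, 5 of 11 genes were tested. MASP2, the protease that ficolins bind, passed the unadjusted threshold as higher in blood with -1.44 (adjusted p = 0.287), COLEC12 and C2 had 1.73 and 1.27, and SFTPD had 0.90.

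Of the markers of macrophages in tissue, all 17 were tested, 17 had a mean ratio above 0 and 14 passed the unadjusted threshold as higher in endometrium, with none called after adjustment. Of all 16653 probes tested, 7896 had a mean ratio above 0 and 878 passed that threshold as higher in endometrium. The median log2 ratio of the 17 markers was 2.51. Taken singly it was 4.04, 0.69, 2.55 and 2.83 in animals 1 to 4. The 7 genes had -3.77, -0.66, 2.21 and 0.63, so in animals 3 and 4 both medians were above 0. SLCO2B1, a transporter of organic anions, and C1QA, a chain of complement C1q, led with 4.23 and 3.81, and MERTK and TREM2 had the lowest ratios, 0.68 and 0.23. In animal 1 the endometrial sample thus had more macrophage signal and the blood sample more of 6 of the 7 genes, while both had CD14. Among the blood samples, animal 1 was also highest for 16 of the 17 macrophage markers and over 4-fold above the next for 5. The shares of all tested probes were 30.6% and 4.29%. The mean of the macrophage markers was 9.69 in blood of animal 1 against 7.12 to 7.77 in the others. The difference between the macrophage markers and the 7 genes was not tested. Of the 8 nonclassical monocyte genes 7 were tested. CSF1R and FCGR3A passed the unadjusted threshold as higher in endometrium with 2.76 and 1.35, and ITGAL and LYN as higher in blood with -2.00 and -1.91.

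Markers of other cells moved with these results in part. Of 22 granulocyte genes on the array, 12 to 15 were well above background on both arrays of each blood sample and 11 to 15 in endometrium. Their mean level was 7.64 in blood of animal 1, the highest of the blood samples, and 6.54 to 6.89 in blood of the others. In endometrium it was highest in animal 3, with 7.43. The list includes the beta-defensins TAP and LAP, at 10.77 and 9.25 in that sample, so its mean there is not one of granulocyte genes alone. BPI, LTF and CHI3L1, also of the list, were 11.40, 9.87 and 9.79 there. The list's log2 summed intensity was 11.3 to 14.6 in blood and 11.3 to 13.1 in endometrium. MPO, an enzyme of neutrophil granules, was between 6.26 and 7.39 in all samples and 6.56 in blood of animal 1. Some other genes of the list were high in that sample, with BPI at 13.56, CHI3L1 at 12.95, LAP at 10.28 and DEFB4A at 10.07, and CHI3L1 had ratios of -2.96, 0.02, 2.46 and 1.87 in animals 1 to 4. Others were at the lower end of the scale there, with CAMP, CATHL1, MMP8 and ARG1 between 5.92 and 5.97. Of the 17 tested genes, blood of animal 1 was the highest blood sample for 9 and over 4-fold above the next for 4. Over all probes those shares were 30.6% and 4.29%. MPO and these genes were named after their values were seen, and the part of granulocytes in the results was not tested. How far the RNA of these genes follows the number of granulocytes was not tested either, so low values do not show that granulocytes were absent. CXCR1 and LCN2 passed the unadjusted threshold as higher in blood, with -1.08 and -1.11, and LTF and TAP had the highest ratios, 1.17 and 0.74. The probe named CXCR1 through the gene table is listed on the array as IL8RB, interleukin 8 receptor beta. Which receptor it reads was not tested. In animal 3 the epithelial and trophoblast markers averaged 11.49 in endometrium against 8.98 to 9.39 in the other animals, and TAP, a beta-defensin of epithelia, was 10.77 there and at most 7.45 elsewhere. PLAC8A, CLEC4E, S100A8 and S100A12 had their highest endometrial level in that same sample, and the part of epithelial cells in it was not tested.

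Over the 4 animals 12 of the 16 tested epithelial and trophoblast genes passed the unadjusted threshold as higher in endometrium, and PAG7, CSH2, PRP1 and PRP6, which encode placental proteins, were called after adjustment, with log2 ratios of 3.84, 3.93, 4.22 and 4.36. SERPINA14, the uterine milk protein, had 6.10, and its adjusted p was 0.059. The lowest were CLDN7 with 0.33 and PAG1 with -1.44, which passed the unadjusted threshold as higher in blood and whose symbol is also that of an adaptor protein of leucocytes. Of 14 stromal and endothelial genes 3 passed the unadjusted threshold in endometrium, and the list averaged 10.54 in endometrium of animal 1 against 6.78 to 8.28 in that of the others. DCN and COL1A1 led with 3.05 and 2.51, and TEK and VIM had 0.04 and -0.73. Of the 21 natural killer and T cell genes 7 passed the unadjusted threshold as higher in endometrium, with GZMB at 3.23 and GZMA at 2.48, and CD6 and IL7R were lowest with -1.50 and -0.58. Of the 9 B cell genes 5 passed it as higher in blood, led by TNFRSF13C with -2.17 and CD22 with -2.14, and PAX5 and BANK1 were nearest 0 with -0.99 and -0.35. For these lists the background is all 16653 tested probes, of which 878 passed the unadjusted threshold as higher in endometrium and 851 as higher in blood.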

How the data were processed

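CD14+ cells of endometrium and blood of 4 cows were hybridised on 8 arrays with 2 colours. The authors deposited scanner files with the median intensity of each spot and its background in each dye, not normalised, and flags. They also deposited a table of log2 values that they normalised by lowess within arrays and quantiles over channels. Feature Extraction was version 9.5 per the labels and 10.5.1.1 per the file headers. The 2 files of each array were identical. Each of the 16 columns of the table equaled, at 100% of probes within 0.001 log2, the labelled dye of the scanner file deposited under its animal's other technical replicate, and at no more than 0.689% of probes a dye of its own file. Files were therefore read exchanged, a choice made after the values were seen. It sets the sign of each ratio in animals 1, 2 and 4.

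Intensities were corrected by normexp (offset 50), then loess was applied to each array and quantile normalisation to the 16 channels (R 4.3.3 and its packages limma 3.58.1, statmod 1.5.0 and, to read files, data.table, version 1.17.8). Control spots and 3 to 20 outlier spots per array were left out, and no member spot was among the outliers. Spots of a probe were averaged. The file's log2 table served as an alternative. Of 21475 probes, 16653 had a signal well above background on no fewer than 4 of a tissue's 8 channels and were tested. Median channel intensity was 48 to 155.5 in blood and 52.5 to 402.75 in endometrium, and precision is limited by how few animals there are. The log2 ratio of an animal was the mean of its 2 arrays. The 4 animals' ratios were tested against 0 with lmFit and eBayes, with Benjamini-Hochberg adjustment over all probes. Labels pair the tissues by animal, and deviations of both tissues of an animal from the tissue means correlated with r from 0.209 to 0.618.

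Members, lists and rules for named genes were chosen with earlier results of these data known. The rule named every member, the 3 genes most correlated with each, and, of each list, the 2 highest and 2 lowest ratios and those called. Of several probes of a gene the brightest was used. Of all probes 3519 were named by accession, 9987 by gene identifier and 297 by gene name in the ARS-UCD2.0 table, and 7672 kept the file's name. The fit was tested on simulated data. Alternatives changed the background correction, normalisation, filter, pairing, dye term, slide, animals and test. Flow cytometry and quantitative PCR were not analysed here.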

Additional observations from a re-analysis of the deposited data

Results flagged for a closer look

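In groups of 4 animals, the gap between the most extreme value and its nearest neighbour, divided by the whole range, was compared with Dixon's 95% critical value for 4 samples. Of 21 groups, which are the blood levels, endometrial levels and log2 ratios of the 7 genes, 5 exceeded it, and chance flags about 1 in 20 groups. All 5 were animal 1, so they are not independent of each other. In blood the gap was 0.874 of the range for S100A8, 0.957 for S100A9, 0.952 for FCN1 and 0.974 for CLEC4D, each with animal 1 above the others. For the log2 ratio of S100A9 it was 0.879, with animal 1 at -4.55 and the nearest animal at -0.13. The flags of S100A9 and CLEC4D rest in part on values not well above background. Such values are S100A9 in animals 2 and 4 and CLEC4D in blood of animals 2 to 4. The offset draws them together, which widens the gap in advance. In the authors' values the S100A9 ratios were -5.16, -2.03, 1.08 and 0.19 in animals 1 to 4.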

How the results depend on the processing

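No alternative called any of the 7 genes it tested after adjustment, with adjusted p-values from 0.379 to 1.00. The filter on all 8 channels kept 3 of them, S100A8, S100A12 and FCN1. The scanner's processed signal turned the mean log2 ratio of CLEC4D to 1.41 and that of CLEC4E to -0.023, as did the authors' log2 values. Leaving out 1 animal at a time gave -2.47 to -0.34 for S100A8, -1.55 to 0.13 for S100A9, -1.66 to 0.49 for S100A12, -1.54 to 0.0077 for FCN1, -0.90 to 0.44 for CLEC4D, -1.04 to 1.07 for CLEC4E and -0.18 to 1.03 for PLAC8A, and 0 called probes each time. Signs turned positive without animal 1 for S100A9, S100A12, FCN1 and CLEC4D and without animal 2 for S100A12 (0.18), and negative without animal 3 for CLEC4E and PLAC8A. With the files as attached, added after the values were seen, ratios were 2.41 for S100A8, 1.28 for S100A9, 1.91 for S100A12, 0.89 for FCN1, 0.53 for CLEC4D, 1.62 for CLEC4E and 0.86 for PLAC8A. All 7 were above 0, as were 52.7% of all probes. In that reading 1 member, S100A8, passed the unadjusted threshold (limma, unadjusted p = 0.043), and 0 probes were called. The share of all probes at the unadjusted threshold is not given for that reading, so the pass of S100A8 has no background beside it. In the main reading that share was 10.4%.

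The number of all probes called, 11, was 50 without background correction, 66 with an offset of 16, 5 with loess only, 7 with quantiles only, 224 with the processed signal or the authors' values, 5 without the filter, 44 with the filter on all 8 channels, 4 unpaired (no replicate block), 793 with 8 arrays, a dye term and animal as random block, 20 and 5 on the arrays of technical replicate 1 and 2, and 0 with the methods' analysis of variance. The cause was not tested. Without the pairing the members' mean ratios are the same by construction, -1.30 for S100A8. A second probe could not be tried, since each gene had 1. Dim signals limit S100A9, CLEC4D and CLEC4E most.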
